A study of Mus musculus with 26 samples.

Results

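Sperm DNA methylation was described at the genes that encode the enzymes and cofactors that write, copy, remove and protect DNA methylation: Dnmt1, Dnmt3a, Dnmt3b, Dnmt3l, Uhrf1, Tet1, Tet2, Tet3, Tdg and Zfp57. These are 10 of the 33183 genes of the RefSeq table for mouse genome build GRCm38. A cytosine position was assigned to a gene when it lay inside the gene's RefSeq span or within 2000 bp of it and was covered by at least 10 reads. In at least 1 library this held for 2189 positions, of 2626470 in the whole genome, and in all 20 offspring libraries for 324, of 457891. A position is the cytosine of a CpG dinucleotide on a given strand, so a CpG read on both strands gives a pair of positions. Dnmt3a had the most positions covered in all offspring (96), followed by Tet3 (51), Tet1 (49), Tet2 (40), Dnmt3b (38) and Dnmt1 (36). Uhrf1 had 11, Zfp57 had 2, Tdg had 1 and Dnmt3l had 0.

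The sperm came from the cauda epididymis of 26 male mice in 6 groups and were profiled by reduced-representation bisulfite sequencing (RRBS), in which DNA is cut at CCGG sites, treated with bisulfite and sequenced from the fragment ends. In the parental generation, 3 sterile W/W-v males carried spermatogonial stem cells (SSCs) of neonatal DBA/2J mice that had been propagated in vitro as several cell lines before transplantation (SSCT F0, donor-derived sperm), and 3 untreated DBA/2J males served as control F0; both were sampled at 16 to 18 months of age. The offspring were 3-month-old DBA/2J males, 5 per group, with no brothers within a group: control F1, SSCT F1 (fathered by the transplanted males), SSCT F2/M (through SSCT F1 mothers) and SSCT F2/P (through SSCT F1 fathers). All SSCT F0 sperm matured in a W/W-v host, so host, culture and transplantation cannot be told apart in that group, and the question in the offspring was whether a difference in sperm methylation reached the next generations.

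Some features of the libraries bear on the results. The sample titles and the labels of the study's clustering plot name the 4 sets of offspring libraries differently, and the treatment label marks as WT the libraries titled SSCT F2/M as well as those titled control F1. The groups below follow the sample titles, and the offspring calls, with the tests of 4 whole promoters and bodies, are also given under the names of the plot and under those names with the F2/P and F2/M names exchanged. Other offspring values are given under the titles alone. The exchanged names gave numbers of tested positions nearly equal to the study's in each offspring comparison, and the titles did not. The titled groups may thus not be the study's groups. Under the exchanged names the libraries titled SSCT F2/M are the controls, and those titled control F1 are SSCT F2/P. Differences and directions given by the titles may therefore not be those of SSCT against control. Offspring and control F0 libraries held 1465300 to 1790008 positions with at least 10 reads, at a median coverage of 23 to 38 reads. SSCT F0 replicate 1 was in this range (1527632 positions). SSCT F0 replicate 2 held 965381 positions and replicate 3 held 175649 at a median coverage of 392 reads, and their shares of positions at exactly 0 or 100% methylation were 94.0% and 90.2%, against 80.6 to 85.0% in the libraries of the other groups. The study's protocol states a lower DNA input for 3 of the samples. Its numbers fall on the SSCT F0 libraries in sample order, though the labels do not tie them, and the study gives a low DNA yield for F0. Reads of added unmethylated control DNA numbered 21133, 261857 and 1526180 in SSCT F0 replicates 1 to 3, and at most 17522 in the other libraries. DNA input thus cannot be told apart from host, culture and transplantation in SSCT F0. Unmethylated control DNA added to each library read as 0.542 to 1.26% methylated, and methylated control DNA as 98.2 to 98.9%. Promoters of maternally methylated imprinted genes, which are unmethylated in sperm and partly methylated in somatic cells, averaged 0 to 3.92% for each of the 6 genes measured (of 7 listed) in every group, except Plagl1 and Peg3 in SSCT F0. There Plagl1 averaged 4.11% (2.19 to 6.27%) and Peg3 13.7% (3.12, 4.59 and 33.3% in the 3 libraries). Promoters of the germ cell genes Dazl, Ddx4, Mael and Sycp3 averaged 0.0728 to 6.25% over the groups.

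DNMT1 is the maintenance methyltransferase, which copies methylation onto the new DNA strand after replication, and UHRF1 guides it there by binding hemimethylated CpGs. DNMT3A and DNMT3B add methylation to unmethylated DNA, and DNMT3L, a catalytically inactive relative, is their cofactor in the germ line. TET1, TET2 and TET3 oxidise methylcytosine, TDG cuts out the oxidised products during base excision repair, and ZFP57 is a zinc finger protein that protects methylation at imprinted regions after fertilisation. In male germ cells most of the genome gains methylation before birth, while CpG-rich promoters stay free of it.

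The sequences before the gene starts show how unequal these promoters are in CpG content. Windows from 250 bases before to 50 bases after a RefSeq start held a median of 7 CG over all 32851 starts of the table. Tet2 held 57, a number reached by 0.152% of all starts, and the Dnmt3a starts held 46, 47 and 18. The Dnmt1 starts held 2, 12 and 33, Dnmt3b held 30, Tdg 26, Tet3 22, Tet1 17 and the Uhrf1 starts 12 and 33. The Dnmt3l starts held 6, 4 and 3, and the Zfp57 starts 6, 9 and 4. CCGG, the site at which RRBS cuts, was found in 12 of the 19 member windows and in 52.8% of all. None of the 3 Dnmt3l windows held it. The bases upstream of the RefSeq span are shown for 5 starts that cover this range, read 5' to 3' on the gene's strand, from RefSeq sequence of GRCm38. CG dinucleotides are in capitals, since these are the sites that can be methylated. The stretches lie at chr2:153649199-153649410 (Dnmt3b, plus strand), chr10:82629588-82629813 (Tdg, plus strand), chr10:62887470-62887574 (Tet1, minus strand), chr17:56303087-56303336 (Uhrf1, plus strand) and chr10:78042037-78042286 (Dnmt3l, plus strand).
Dnmt3b: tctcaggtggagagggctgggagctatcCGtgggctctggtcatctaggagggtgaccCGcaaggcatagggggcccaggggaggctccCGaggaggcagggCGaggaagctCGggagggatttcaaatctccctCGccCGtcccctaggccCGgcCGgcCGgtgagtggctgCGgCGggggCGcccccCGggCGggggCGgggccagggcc
Tdg: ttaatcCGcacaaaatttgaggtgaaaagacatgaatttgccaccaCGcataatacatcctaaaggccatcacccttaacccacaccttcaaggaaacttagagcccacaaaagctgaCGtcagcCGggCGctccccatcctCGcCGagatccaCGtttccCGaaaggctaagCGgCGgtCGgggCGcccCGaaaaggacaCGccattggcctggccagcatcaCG
Tet1: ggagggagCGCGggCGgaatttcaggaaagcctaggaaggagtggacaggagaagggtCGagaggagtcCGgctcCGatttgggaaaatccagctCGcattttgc
Uhrf1: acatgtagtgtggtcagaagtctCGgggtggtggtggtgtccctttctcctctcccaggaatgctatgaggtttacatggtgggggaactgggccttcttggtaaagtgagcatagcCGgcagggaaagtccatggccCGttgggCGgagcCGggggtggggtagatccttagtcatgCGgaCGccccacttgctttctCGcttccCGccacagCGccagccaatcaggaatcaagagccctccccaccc
Dnmt3l: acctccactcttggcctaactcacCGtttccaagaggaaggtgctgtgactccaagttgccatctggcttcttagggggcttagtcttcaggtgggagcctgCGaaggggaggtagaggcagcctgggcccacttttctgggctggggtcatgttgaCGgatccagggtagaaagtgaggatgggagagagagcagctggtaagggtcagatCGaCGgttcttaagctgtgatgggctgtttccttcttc

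In these stretches methylation could be read at 8 of the 32 strand positions of Dnmt3b, 9 of 32 of Tdg, 3 of 14 of Tet1, 11 of 20 of Uhrf1 and 0 of 10 of Dnmt3l, counting positions that reached 10 reads in at least 3 offspring libraries. The mean level over the covered positions was 2.39% for Dnmt3b, 0.922% for Tdg and 2.69% for Tet1. It was 22% for Uhrf1, where single positions averaged from 2.18 to 43.2%. The Tdg stretch was thus in the range of the unmethylated control DNA, the Dnmt3b and Tet1 stretches were above it, and the Uhrf1 stretch was much higher.

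Promoter methylation, taken as the mean level of the positions within 1000 bp of a RefSeq start in each library with at least 3 of them, was low for 8 of the 10 genes in all 6 groups. Among the methyltransferases, the control F1 mean was 1.80% ± 0.594 for Dnmt1, 1.22% ± 0.344 for Dnmt3a and 1.77% ± 0.635 for Dnmt3b (SD, n = 5). Over the other groups the means ran from 0.567 to 2.56% for Dnmt1, from 1.36 to 1.69% for Dnmt3a and from 1.55 to 1.88% for Dnmt3b. The Dnmt3a value rests on 230 to 363 positions per library outside SSCT F0, the most of any member. Among the demethylation genes, the control F1 mean was 2.27% ± 2.39 for Tet1, 0.528% ± 0.312 for Tet2, 5.31% ± 2.23 for Tet3 and 0.900% ± 2.01 for Tdg. Zfp57 stood at 1.94% ± 3.11 in control F1 and at 0 to 0.703% in the other groups, on at most 18 positions per library. The order of these low promoters is not resolved, since most of their SDs are as large as the gaps between them.

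Uhrf1 and Dnmt3l were the promoters with higher values. The Uhrf1 promoter averaged 7.42% ± 3.19 in control F1 and 5.04 to 11.5% in the other groups. Its starts differed when each promoter position was assigned to the nearest start. At the upstream start the control F1 mean was 17.8% ± 5.59, and at the downstream start, with 33 CG in its window, it was 1.13% ± 0.814. The other groups had the same order, with means of 23.3 to 29% against 0.963 to 2.38% outside SSCT F0 and of 9.6 against 3.5% in SSCT F0. The Dnmt3l promoter was read at few positions, 3 to 17 per library, none of them shared by all offspring, and its first start lies inside the RefSeq span of its neighbour Aire. Within 1000 bp of that start the control F1 mean was 65.7% ± 24.2. Over the whole promoter the 5 control F1 mice read 43.4, 56.4, 27.1, 79.0 and 42.3%. The means of the other groups were 18.6% ± 11.3 in control F0 (n = 3), 24.7% ± 7.65 in SSCT F0 (n = 3), 25.6% ± 12.6 in SSCT F1, 28.6% ± 23.3 for SSCT F2/M and 23.5% ± 10.4 for SSCT F2/P (n = 5 each). Control F1, as titled, was thus the highest group, but its mice overlapped with those of all 3 SSCT offspring groups. This promoter was not compared under the other names of the groups. Each library contributed different positions to this promoter, and the differences from control F1 did not pass after adjustment over all genes. By the two-sided exact permutation test they were -24.0 points in SSCT F1 (p = 0.0397, adjusted p = 1.0) and -21.1 points in SSCT F2/M (p = 0.175). In SSCT F2/P the difference was -26.1 points (exact p = 0.0238, adjusted p = 0.982). With 5 against 5 mice the exact p cannot go below 0.00794, so a gene could pass only if a large share of all genes reached it.

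**Figure D1:**
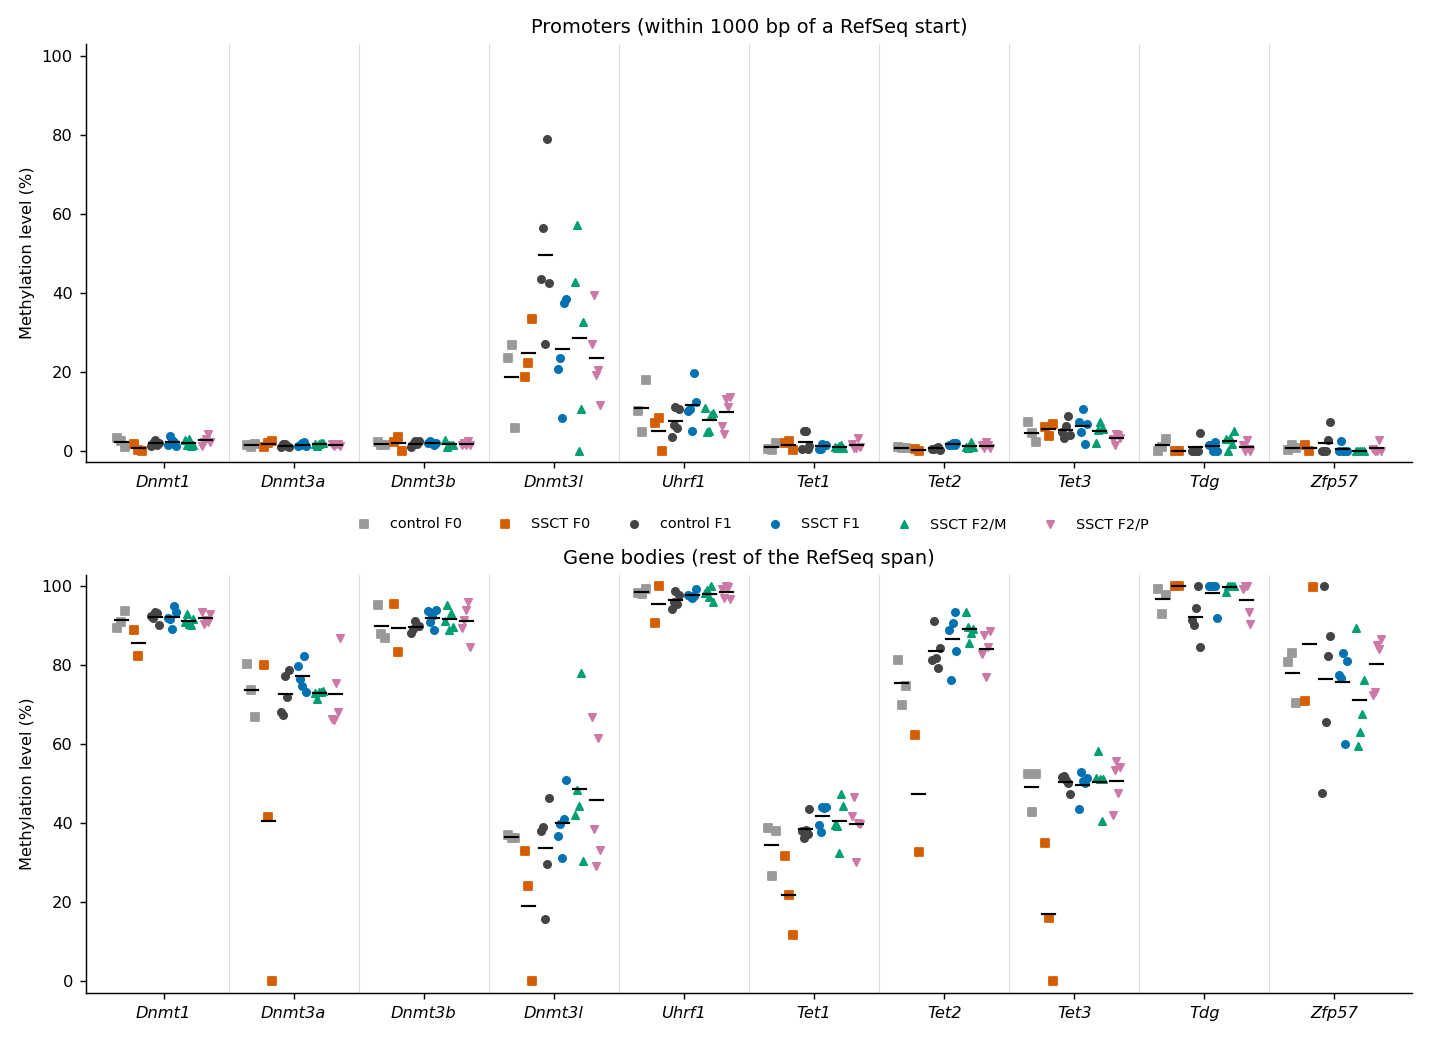
Methylation level in percent of the promoter (upper panel) and of the gene body (lower panel) of each gene; every point is a library, symbols and colours mark the 6 groups and black bars are group means. Promoters other than Dnmt3l and Uhrf1 stay at or below 10.6% in every library, while gene bodies range from 33.8% (Dnmt3l) to 96.5% (Uhrf1) in control F1. In SSCT F0 replicate 3 the Tet3, Dnmt3l and Dnmt3a bodies lie near 0 on the few positions read there.

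Gene bodies, the rest of each RefSeq span, were methylated to very different degrees. In control F1 the bodies of Uhrf1 (96.5% ± 1.84), Dnmt1 (92.3% ± 1.26), Tdg (92.2% ± 5.67) and Dnmt3b (89.7% ± 1.12) were nearly fully methylated. Tet2 (83.6% ± 4.59), Zfp57 (76.6% ± 20.3, on 4 positions) and Dnmt3a (72.7% ± 5.24) followed. The bodies of Tet3 (50.4% ± 1.86), Tet1 (38.6% ± 2.83) and Dnmt3l (33.8% ± 11.7) were the lowest. The gap of Dnmt1 to Tdg was smaller than either SD and that of Tet1 to Dnmt3l smaller than the SD of Dnmt3l, while Dnmt1 lay above Dnmt3b by more than the SD of either. The 4 offspring groups gave nearly the same order, with means of 49.8 to 50.6% for Tet3 and 38.6 to 41.9% for Tet1.

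The middle values of Tet1 and Tet3 came from a mixture of unmethylated and methylated stretches, in Tet1 together with partly methylated ones. Of the 64 windows of 1000 bp with at least 1 position covered in all offspring, 16 averaged under 10%, 38 over 90% and 10 in between (25%, 59.4% and 15.6%, beside 28.8%, 50.9% and 20.4% of all 106111 windows). In Tet3 the windows chr6:83456001-83457000 and chr6:83457001-83458000, at the upstream end of the RefSeq span far upstream of the start in the promoter table, averaged 1.74 and 1.87% over 17 and 6 positions. These levels were in the range of the promoters, although the windows were counted in the gene body. In Tet1 the window chr10:62885001-62886000, 1735 bp inside the gene, averaged 1.10%, and 3 windows 54373 to 68142 bp inside it averaged 96.8 to 98.7%. Further Tet1 windows lay in between, at 23.2, 39.7 and 54.7%.

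**Figure D2:**
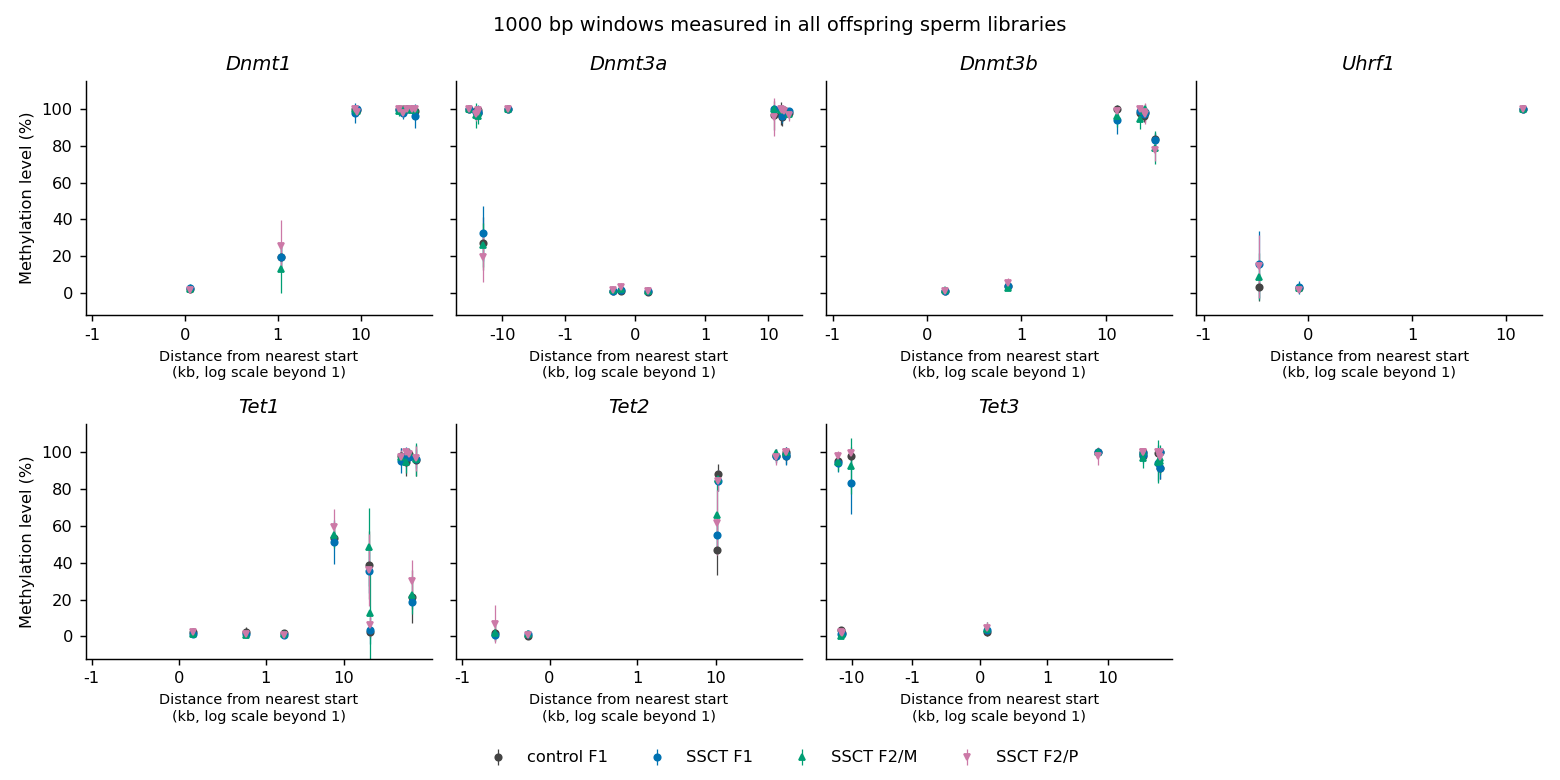
Methylation level in percent of the 1000 bp windows measured in all 20 offspring libraries, by distance from the nearest RefSeq start in kb (linear to 1 kb, logarithmic beyond; negative values are upstream); points are group means and bars SDs (n = 5). Windows at the starts lie near 0, most distant windows near 100, and of the 10 windows between 10 and 90% Tet1 and Tet2 hold 5.

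Mice differed more in partly methylated windows than in most others. Among the 10 windows between 10 and 90% the median SD over the 20 offspring was 12.1 points (range 4.79 to 17.6), against 1.62 points (0.510 to 13.2) in the windows under 10% and 3.04 points (0 to 12.5) in those over 90%, so the ranges overlapped. The corresponding medians over all windows were 12, 2.32 and 3.75 points. In Tet1 they were chr10:62812001-62813000 at 23.2% (0 to 45.7% over the 20 mice), chr10:62866001-62867000 at 39.7% (14.6 to 83.8%) and chr10:62879001-62880000 at 54.7% (35.6 to 75.9%). In Tet2 they were chr3:133533001-133534000 at 85.5% (76.0 to 94.5%) and its neighbour chr3:133534001-133535000 at 57.3% (29.99 to 89.3%), 10744 and 10232 bp inside the gene. Dnmt1 had such a window 1106 bp from its upstream start (19.4%, 1.67 to 37.2%) and Dnmt3a had 1 at 26.4% (0 to 48.3%), upstream of its most downstream start. Dnmt3b (80.8%), Zfp57 (79.4%) and the upstream Uhrf1 start (10.7%, 1 position) had 1 each. The places called below as differing between groups fall mostly in these windows.

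**Figure D3:**
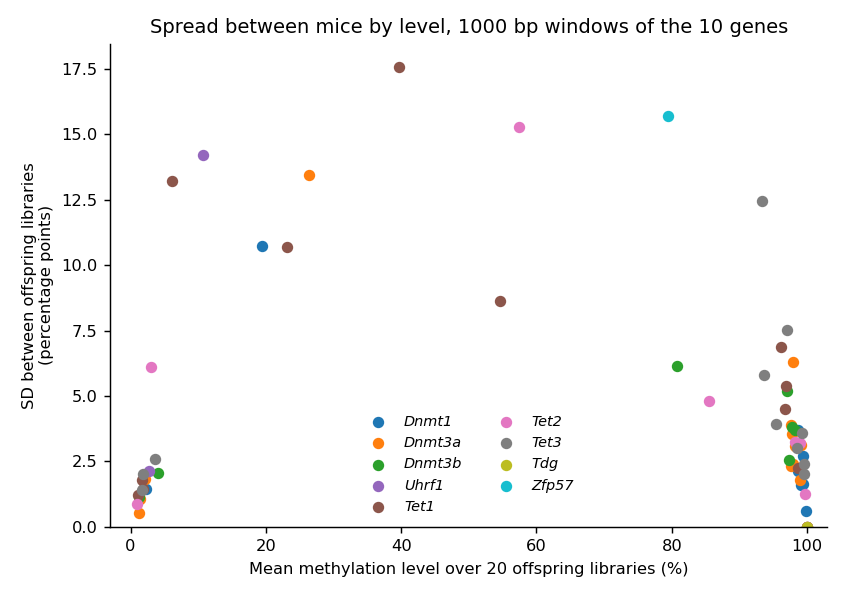
SD between the 20 offspring libraries in percentage points against the mean methylation level in percent, for each 1000 bp window of the 10 genes; colours mark genes. Windows between 10 and 90% have SDs of 4.79 to 17.6 points, while the windows under 10% and over 90% have medians of 1.62 and 3.04 and single windows up to 13.2 and 12.5.

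SSCT F0 sperm was compared with control F0 at the study's thresholds. Reads were pooled per position (differentially methylated CpG, DMC) or per 1000 bp window (differentially methylated region, DMR). A call needed a chi-square test with q under 0.01 and a read-weighted difference over 25 percentage points. More positions and windows were called over the whole genome than the study lists for this comparison. Only 58 member positions and 14 windows reached 10 reads in all 6 libraries. Of these, 4 positions were DMCs, against 5.83% of all positions tested, and 1 window was a DMR, against 10.0% of all windows, so the genes did not stand out from the background of this comparison. The DMR was the Tet1 window chr10:62879001-62880000, which held 3 of the DMCs, 7492 to 7513 bp inside the gene. On its 3 shared positions the SSCT F0 replicates read 13.6, 0 and 0.0966%, and the control F0 replicates 60.0, 10.8 and 58.5%. SSCT F0 replicate 1 lay above control F0 replicate 2, so the groups overlapped, and the difference between mice missed the threshold (-38.6 points, exact permutation test, two-sided, p = 0.2, with 0.1 the smallest that 3 against 3 mice can give). Over all positions of the window with 10 reads in each library, SSCT F0 read 32.3, 40.4 and 0.0966% and control F0 58.6, 34.4 and 64.1%. The window was no longer a DMR without SSCT F0 replicate 3 (-7.99 points, read-weighted) or without control F0 replicate 1 (-22.6 points). Without that control library its 3 DMCs were lost as well (-24.4 to -19.3 points). Leaving out SSCT F0 replicate 3 let further positions into the window, and the 3 DMCs were still called. The remaining DMC lay in the Tet3 promoter at chr6:83441584, 94 bp downstream of the start. It was 100% methylated over 333 reads in SSCT F0 replicate 3 and 0% in the other 5 F0 libraries, so it rested on that library alone.

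Groups did not overlap in 2 further windows that were not called, where 10.8% of all windows did not overlap. In the Dnmt1 promoter window chr9:20952001-20953000 the SSCT F0 replicates read 0, 0 and 0% and the control F0 replicates 5.56, 3.62 and 0.439%. In the Tet1 window chr10:62812001-62813000, 74822 bp inside the gene, SSCT F0 read 5.75, 0 and 0% and control F0 40.2, 16.8 and 8.11%. Both had the smallest p possible (exact permutation test, two-sided, p = 0.1). Over each library's own positions the Dnmt1 window overlapped (1.95, 0.0496 and 0% in SSCT F0, 3.44, 2.63 and 0.721% in control F0) and the Tet1 window did not (6.5, 3.35 and 0% against 23.2, 9.59 and 19.6%). An F test scaled to the variation among mice gave an unadjusted p under 0.05 with over 25 points at 1 of the 58 positions (Tet1 chr10:62879817, 1.11% of all positions) and at 0 of the 14 windows (2.32% of all).

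Without SSCT F0 replicate 3, 507 positions and 47 windows could be compared, and 20 DMCs (5.83% of all positions) and 2 DMRs (10.1% of all windows) were called. Tet2, which could not be tested with that library, had the larger change. In its window chr3:133533001-133534000, 10777 bp inside the gene, SSCT F0 replicates 1 and 2 read 27.3 and 26.6%, and control F0 replicates 76.4, 62.3 and 84.1%, over each library's own positions. The 20 offspring of all groups read 80.1 to 95.0% in this window. On the 7 positions shared by the 5 libraries the means were 28.8% ± 3.09 and 75.2% ± 7.30, without overlap (two-sided exact permutation test, p = 0.1, which is the smallest possible). In this setting 7 of the 47 windows did not overlap (14.9%). The share over all windows is not given, so the lack of overlap at Tet2 has no background. Both strands of its CpG at chr3:133533528 and chr3:133533529 were low in SSCT F0 (28.6 and 25.1%, 15 and 30.1%) and high in control F0 (92.9 to 100% and 71.4 to 100%). The largest difference was at chr3:133533475, with 9.52 and 3.12% against 100, 100 and 88.9%. Of the Tet2 DMCs only chr3:133533794, named after its values were seen, went the other way (100 and 100% in SSCT F0, 59.1, 100 and 45.5% in control F0). The other DMR was a lone position in Dnmt3a, chr12:3867011, in the window chr12:3867001-3868000, at 79.7 and 58.1% in SSCT F0 and 100% in each control F0 replicate. Of the 20 DMCs, 14 lay in gene bodies and 13 of these were lower in SSCT F0. The other 6 lay in promoters, 3 in Dnmt3b and 1 each in Dnmt3a, Tet3 and Uhrf1, and were all higher. At these 6 positions SSCT F0 replicate 2 read 42.4 to 100%, whereas replicate 1 read 0 to 27.3% and control F0 0 to 24.4%. With controls that low, a difference over 25 points could only be a rise. The directions of all DMCs in this setting are not given, so these splits have no background. Leaving out SSCT F0 replicate 2 as well, which leaves 1 transplanted male, 32 of 935 positions were called (5.49% of all positions) in 1 library against 3, so this count has no replicate check.

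The 4 gene bodies testable on each library's own positions had lower means in SSCT F0. The Tet3 body read 35.1, 16.1 and 0.0163% in SSCT F0 and 52.4, 42.9 and 52.5% in control F0. The Dnmt3l body read 32.9, 24.2 and 0% against 37.0, 36.3 and 36.4%. These groups did not overlap (exact permutation test, two-sided, p = 0.1 for each), as was the case for 34.1% of all gene bodies. The Dnmt3a body (80.1, 41.5 and 0.0299% against 80.3, 73.8 and 66.8%) and the Tet1 body (31.7, 21.7 and 11.8% against 38.9, 26.7 and 38.1%) overlapped. The median difference over these 4 testable bodies was -24.9 points, beside -9.81 points over all genes. Replicate 3 was lowest in each of the 4, on few, deeply read positions. On the positions shared by all F0 libraries, the Dnmt3l body averaged 0.174% in SSCT F0 and 0.129% in control F0 (6 positions). The Tet3 body averaged 0 and 1.97% (3 positions) and the Tet1 body 1.92 and 17.7% (9 positions). Control F0 was thus also near 0 at the shared Dnmt3l and Tet3 positions, and the part that the choice of positions plays was not tested. On shared positions, 5 member promoters and 3 bodies could be tested, and 0 passed the exact permutation test adjusted over all genes or limma, nor could any by the exact test at n = 3.

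**Figure D4:**
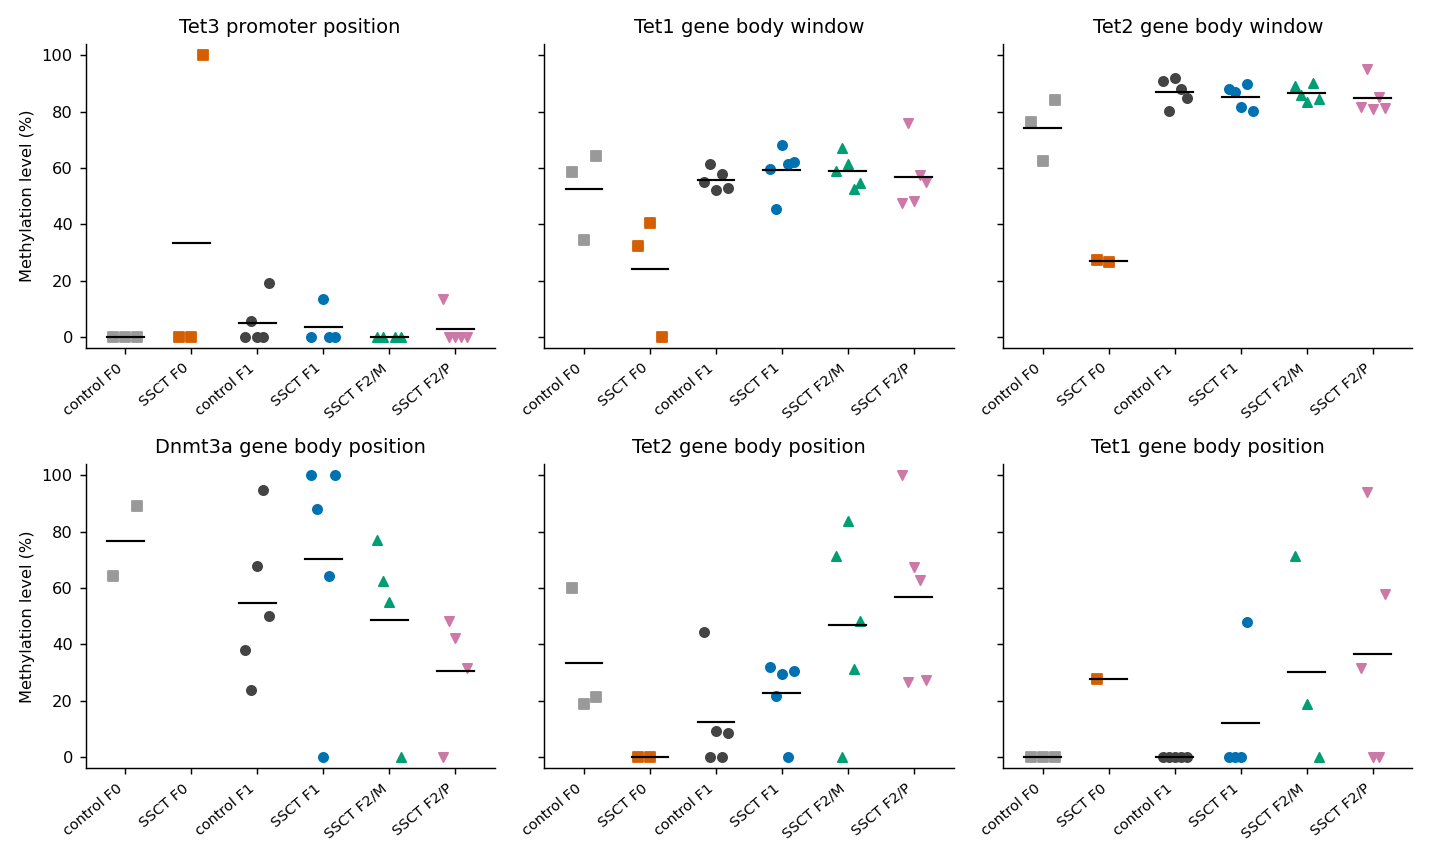
Methylation level in percent at 6 places of the 10 genes in each library with at least 10 reads there, by group; points are mice and black bars group means. The Tet2 window is at 27.3 and 26.6% in the 2 SSCT F0 libraries that cover it and at 62.3 to 95.0% in all other libraries, while at the Dnmt3a, Tet2 and Tet1 positions of the lower row mice of the same group differ by up to 100 points.

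Each of the 3 offspring groups of transplanted males was compared with control F1, so the 3 comparisons share their 5 control mice. In SSCT F1 1 of 457 member positions was a DMC, against 0.462% of all positions, and 0 of 77 windows were DMRs, against 0.414% of all windows. The largest window difference was 7.60 points in promoters and 16.4 points elsewhere, and by the F test 0 windows and 0 positions had an unadjusted p under 0.05 with over 25 points, against 0.223% and 0.239% of all. The DMC lay in the Dnmt3a body, chr12:3849447, 42287 bp downstream of the nearest start. SSCT F1 mice read 100, 88.1, 0, 64.3 and 100%, and control F1 mice 37.9, 23.7, 67.8, 94.7 and 50.0%. The groups overlapped fully and the mice did not separate (difference of means 15.6 points, exact permutation test, two-sided, p = 0.484). It was not called without SSCT F1 replicate 2 (24.3 points, read-weighted), SSCT F1 replicate 5 (22.6) or control F1 replicate 2 (16.8). None of the 254 promoter positions was called.

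In SSCT F2/M 3 of 515 positions were DMCs, against 0.42% of all, and 2 of 82 windows were DMRs, against 0.363% of all. Both Tet2 DMCs lay in the variable window chr3:133534001-133535000, which was also a DMR. At chr3:133534166 SSCT F2/M mice read 71.4, 0, 84.0, 31.2 and 48.4%, and control F1 mice 44.4, 0, 9.30, 0 and 8.70% (exact permutation test, two-sided, p = 0.103). At chr3:133534151, 15 bp away, they read 71.4, 45.5, 84.0, 31.2 and 66.7% against 48.1, 81.0, 14, 66.7 and 7.35% (p = 0.341, exact). The window on its 3 shared positions gave 65.8% ± 17.6 in SSCT F2/M and 46.9% ± 13.7 in control F1, with overlap (exact p = 0.0952). The remaining DMC, which alone made the second DMR, was chr6:83455367 in Tet3, upstream of the start. SSCT F2/M mice read 0, 76.8, 0, 70.6 and 76.7% and control F1 mice 0, 50.0, 32.5, 56.0 and 26.3% (exact p = 0.595). None of these 4 places separated the mice by the exact test. By the F test the Tet2 window had an unadjusted p under 0.05 with over 25 points, 1 of 82 windows against 0.188% of all, but did not pass after adjustment over all windows. None of the 515 positions had such a p, against 0.214% of all. Each call was lost when some single mouse was left out. Without SSCT F2/M replicate 3 both Tet2 DMCs and the Tet2 DMR were lost (24.6, 22.6 and 19 points). Without control F1 replicate 3 or control F1 replicate 5 the DMC at chr3:133534151 (24.0 and 15.4) and the DMR (23.4 and 19) were lost, and without SSCT F2/M replicate 5 the DMR alone (23.9). The Tet3 DMC and DMR were lost without control F1 replicate 1 (23.0) or SSCT F2/M replicate 2 (19.8). Of the windows 1 did not overlap between the groups, against 0.428% of all windows: Tet3 chr6:83457001-83458000, in the unmethylated block, with SSCT F2/M at 0, 0, 0, 0 and 0.211% and control F1 at 1.33, 2.91, 3.33, 5.95 and 4.19% on 6 shared positions (two-sided exact permutation test, p = 0.00794, the smallest possible for 5 against 5). On each library's own positions the same window overlapped (0 to 12% against 1.18 to 17.1%).

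In SSCT F2/P 2 of 553 positions were DMCs, against 0.43% of all, and 0 of 85 windows were DMRs, against 0.391% of all. The largest window difference was 11.6 points in promoters and 24.4 points elsewhere, and 0 windows passed the F test at an unadjusted p under 0.05 with over 25 points, against 0.202% of all. Both DMCs passed it, 2 of the 553 positions against 0.223% of all, but not after adjustment over all positions. Neither DMC was lost when a single mouse was left out. At Tet2 chr3:133534166, the position also called in SSCT F2/M against the same controls, SSCT F2/P mice read 100, 26.7, 67.3, 62.9 and 27.3%. Control F1 replicate 1 at 44.4% lay within them and the other 4 controls below (difference of means 44.3 points, exact permutation test, two-sided, p = 0.0238, not adjusted). At this position SSCT F1 read 31.9, 21.6, 29.4, 0 and 30.4%, control F0 60.0, 19 and 21.4%, and SSCT F0 replicates 1 and 2 read 0 and 0%. These ranges overlap with that of control F1. The neighbouring position chr3:133534151 read 33.3, 13.8, 73.5, 33.9 and 27.3% in SSCT F2/P and was not called. The other DMC was Tet1 chr10:62866121, 21203 bp inside the gene. It read 0% in all 5 control F1 mice and 31.6, 94.1, 0, 0 and 57.9% in SSCT F2/P (exact permutation test, two-sided, p = 0.167). Promoter positions were called in neither F2 group (0 of 303 in SSCT F2/M, 0 of 325 in SSCT F2/P).

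The names given to the offspring groups decide these calls. Under the names of the clustering plot, exchanged or not, SSCT F1 gave 2 DMCs of 514 positions (0.404% of all), Tet1 chr10:62809753 and Uhrf1 chr17:56302816, and 1 DMR of 82 windows (0.367% of all), the Tet1 window chr10:62809001-62810000, which is read at that 1 position. SSCT F2/M under those names compares the same libraries as before in the other direction, so the Tet2 and Tet3 differences turn to -35.7, -29.4 and -30.7 points for the DMCs and -25.6 and -30.7 points for the DMRs. SSCT F2/P gave 0 of 445 positions (0.439% of all) and 0 of 69 windows (0.369% of all). With the F2/P and F2/M names exchanged, SSCT F2/M gave 0 and 0, and SSCT F2/P gave the 3 DMCs and 2 DMRs with those negative signs. No naming called a promoter position except the Uhrf1 one upstream of its first start, where the libraries titled SSCT F2/P read 48.0, 17.6, 8.33, 0 and 74.1% and those titled SSCT F2/M 0, 0, 0, 0 and 35.1%.

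Whole promoters and gene bodies were compared per mouse on the positions shared by all 10 libraries of a comparison, with an exact permutation test adjusted over all genes. The members testable were 8 promoters and 10 bodies for SSCT F1, 7 and 9 for SSCT F2/M, then 7 and 8 for SSCT F2/P. None passed at adjusted p under 0.05, by the exact test or by limma, in any comparison, and by the exact test 0.0% of all genes passed. Since 0.00794 is the smallest exact p for 5 against 5 mice, a gene could pass only if a large share of all genes reached it. The adjusted exact p therefore cannot show that a single gene did not differ. At an unadjusted p under 0.05, SSCT F1 had 0 promoters (4.66% of all promoters) and 1 body (4.22% of all bodies), SSCT F2/M had 0 and 0 (4.22% and 4.33%), and SSCT F2/P had 1 promoter and 0 bodies (4.37% and 4.35%). Median differences of the member promoters were 0.387, 0.837 and 0.557 points in the SSCT F1, F2/M and F2/P groups, beside 0, 3.72e-05 and -0.0127 points over all genes. Those of the bodies were -0.0650, 0.131 and 1.2 points, beside 0.00947, 0.00279 and -0.0212. On each library's own positions the medians were 0.302, -0.0698 and -0.0394 points for the promoters, with the other sign in both F2 groups, and 2.67, 1.82 and 1.14 points for the bodies, with the other sign for SSCT F1.

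Of the exact tests the Dnmt3a promoter in SSCT F2/P gave the smallest p (by limma, unadjusted p = 0.0309). Over 139 shared positions and 3484 to 5744 reads per mouse, SSCT F2/P mice read 1.64, 1.63, 1.7, 1.24 and 1.29%, and control F1 mice 1.04, 1.16, 0.753, 0.631 and 1.13%. The groups did not overlap, as for 0.892% of all promoters (difference 0.557 points, two-sided exact permutation test, p = 0.00794, the smallest possible, adjusted p = 0.890). On each library's own positions the difference was 0.261 points (exact p = 0.183), and without SSCT F2/P replicate 5 it was 0.271 points with overlap (exact p = 0.0952). Under the names of the plot it was 0.0142 points (exact p = 0.984) and with the exchange -0.300 points (exact p = 0.167). In SSCT F1 it was 0.300 points (exact p = 0.238) and in SSCT F2/M 0.300 points (exact p = 0.167), against the same controls. The unmethylated control DNA read 0.743 to 1.13% in SSCT F2/P and 0.777 to 1.22% in control F1, so the promoter levels of all these mice are within about 1 point of what unconverted cytosines give, and unequal conversion in the promoter was not tested.

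**Figure D5:**
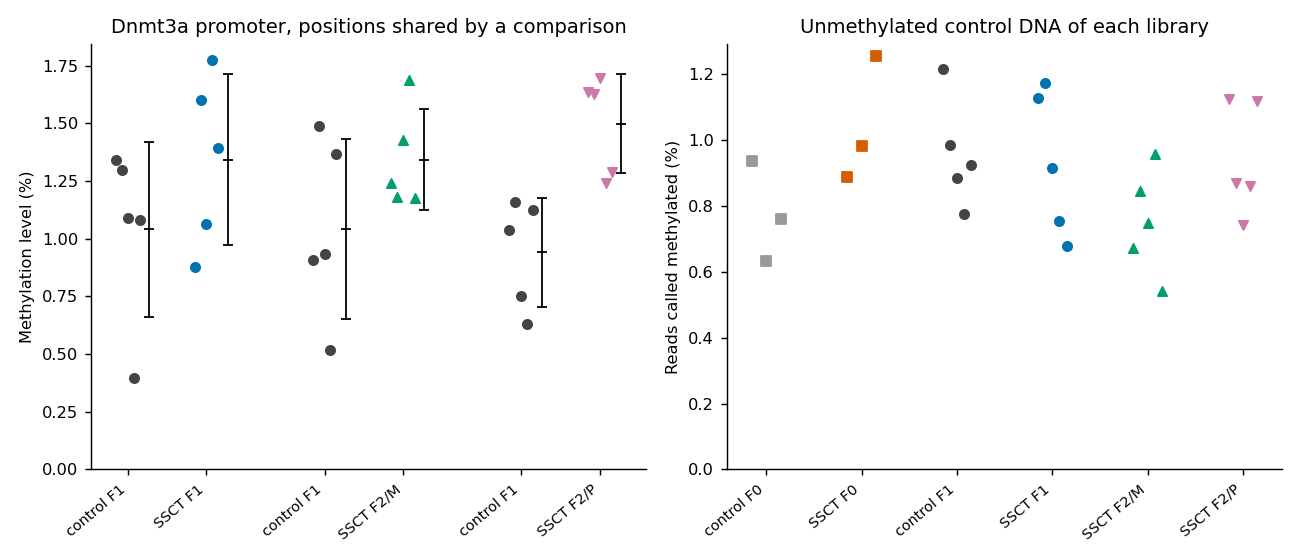
Left, methylation level in percent of the Dnmt3a promoter in each mouse on the positions shared within a comparison, with mean and SD (n = 5) beside the points; the control F1 mice appear 3 times because the shared positions differ. Right, percentage of reads called methylated in the unmethylated control DNA of each library; SSCT F2/P mice lie above control F1 mice on the left (1.24 to 1.7% against 0.631 to 1.16%) and overlap with them on the right.

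Other differences at single genes did not pass after adjustment over all genes. The Tet3 body was 25.4% ± 0.304 among SSCT F1 mice and 26.3% ± 0.871 among control F1 mice over 59 positions (exact permutation test, two-sided, p = 0.0317, adjusted p = 1.0), and on each library's own positions the means were 49.8 and 50.4%. Under the names of the plot, exchanged or not, the Tet3 difference had the other sign (1.40 points, exact p = 0.0476). The Tet2 promoter was 1.41% ± 1.03 among SSCT F1 mice and 0.588% ± 0.402 among controls over 39 shared positions (exact p = 0.167). On each library's own positions SSCT F1 mice read 1.38, 1.32, 1.88, 1.51 and 1.83% and control F1 mice 0.313, 0.415, 0.766, 0.940 and 0.207%, without overlap, as for 0.681% of all promoters (exact p = 0.00794, adjusted p = 1.0). Under the names of the plot the shared-position difference of the Tet2 promoter was 0.0222 points (exact p = 0.984). The Uhrf1 body was 98.4% ± 2.20 in SSCT F2/M and 93.7% ± 4.53 in control F1 over 7 positions (exact p = 0.0556, limma unadjusted p = 0.00654). Under the names of the plot this difference was -4.71 points (exact p = 0.0556), and with the exchange -0.187 points (exact p = 1.0).

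A list of 35 other genes of the same machinery, among them MBD proteins that bind methylated DNA, base excision repair enzymes and histone methyltransferases, was counted in the same way. In SSCT F0 6 of 272 positions were DMCs (2.21%, against 5.83% of all) and 1 of 46 windows was a DMR (2.17%, against 10.0% of all; Ehmt2, a histone methyltransferase gene, 1 position at 0.117% ± 0.203 in SSCT F0 and 34.7% ± 28.5 in control F0). SSCT F1 had 3 DMCs of 1157 positions (0.259%), SSCT F2/M 1 of 1277 (0.0783%) and SSCT F2/P 2 of 1356 (0.147%), each below the share over all positions, with no DMR in 134, 138 and 142 windows. No promoter or body of the list passed the exact test after adjustment over all genes. At an unadjusted p under 0.05 the promoters numbered 2 of 22, 2 of 25 and 0 of 25, and the bodies 1 of 25, 5 of 25 and 0 of 24, in the SSCT F1, F2/M and F2/P groups. The 5 bodies for SSCT F2/M (20% of those tested, against 4.33% of all) were Mbd1, Mbd2, Uhrf2, Usp7 and Zfp445, 2 higher and 3 lower.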

How the data were processed

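RRBS libraries of 26 mice, 1 per mouse, were analysed. Per the labels and the study's methods, the authors trimmed single reads (Trim Galore 0.4.1, FastQC), aligned them with Bismark 0.20.0 to GRCm38 (mm10) and compared groups with methylKit 1.7.0. The deposited tables give for each cytosine position a methylation level as a fraction and the count of reads covering it; methylated reads were recovered as their product, which was not whole at 57 positions. Reads carry no molecular identifiers, so read-based tests cover counting error only. DBA/2J reads were aligned to the genome of another strain, and positions where the strains differ were not removed here. Steps not named above are not given in the sources used here.

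Only positions with 10 reads in all libraries compared were kept, up to the 99.9th percentile of coverage of each library. DMCs and DMRs (1000 bp windows) were called from pooled reads at the study's thresholds, q under 0.01 and over 25 points. The test was a chi-square likelihood-ratio test with Benjamini-Hochberg adjustment over all positions or windows. The study's methods do not name the adjustment. This test does not include the spread between mice. Mice were therefore compared by two-sided exact permutation tests, and an F test scaled to the variation among mice was the alternative. Promoters (1000 bp on either side of a RefSeq start, GRCm38.p6) and gene bodies with at least 3 positions were tested for all genes, adjusted over all genes at 0.05, with limma 3.58.1 on log2((methylated + 1)/(unmethylated + 1)) as alternative. Scripts used Python 3.11.15, NumPy 2.4.6, SciPy 1.17.1, pandas 2.3.3, matplotlib 3.10.9 and R 4.3.3 and were tested on simulated data. In the comparisons of all libraries by the titles, every DMR was named. So were, per gene and comparison, the 3 DMCs with the largest difference and the windows whose groups did not overlap. The 10 genes, the list of 35 genes and the imprinted and germ cell lists were chosen with earlier results of these data known. Among the 3 namings of the offspring groups, the plot's names with F2/P and F2/M exchanged came closest to the study's numbers of tested positions. They gave 714809, 664351 and 609451 for SSCT F1, F2/P and F2/M, nearly equal to those the study lists. The titles gave 597393, 695210 and 664351. The titles were kept because they are the labels of the samples, so values under a title may not belong to the study's group of that name. Different mice of a group were the replicates. Offspring pairs correlated at r = 0.960 to 0.974 over 106111 windows.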

Additional observations from a re-analysis of the deposited data

Results flagged for a closer look

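Of 107 groups of 4 or 5 mice checked, 12 (11.2%) held a mouse whose gap to the nearest other mouse was large for the range of its group. For normally distributed values, chance would give about 1 in 20. These values are bounded and often tied, so that rate need not hold, and many of them rest on few positions. In gene bodies, Dnmt3a in SSCT F2/M replicate 2 was at 71.5% (others 73.0 to 73.5%), Tet1 in control F1 replicate 5 at 43.5% (36.3 to 38.2%) and Tet3 in SSCT F1 replicate 1 at 43.5% (50.3 to 53.0%). The Tdg body was at 92.0% in SSCT F1 replicate 5 and at 98.6% in SSCT F2/M replicate 1, with all other mice of those groups at 100%. The Zfp57 body was at 60.1% in SSCT F1 replicate 4 (others 76.7 to 83.2%, on 4 positions).

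In promoters, Tdg in control F1 replicate 5 was at 4.50% (others 0%), Zfp57 in SSCT F1 replicate 2 at 2.5% (others 0%) and Zfp57 in SSCT F2/P replicate 4 at 2.73% (others 0 to 0.317%). At single positions, Tet2 chr3:133534151 was at 100% in SSCT F1 replicate 4 (others 29.4 to 40.4%), Tet2 chr3:133534166 at 44.4% in control F1 replicate 1 (others 0 to 9.30%) and Tet1 chr10:62866121 at 47.8% in SSCT F1 replicate 4 (others 0%). The Tet2 position chr3:133534166 was a DMC in both F2 groups, against the control F1 group that holds this mouse.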

How the results depend on the processing

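Counts of called promoters and gene bodies were 0 under every alternative run. The exact tests among them could at best pass a gene if a large share of all genes reached the smallest possible p. The counts of DMCs and DMRs moved. The number of positions tested changed with many of these settings, and shares over all positions or windows are not set beside the counts here. A higher or lower count is therefore not a result about these genes. In the order SSCT F0, F1, F2/M and F2/P, DMCs numbered 4, 1, 3 and 2, and became 1, 0, 0 and 0 at 20 reads and 0 in each by the F test. At 5 reads the SSCT F1, F2/M and F2/P groups had 6, 7 and 6. With strands merged SSCT F1 had 0 and SSCT F2/M 5. DMRs, 1, 0, 2 and 0, became 0 in SSCT F0 and SSCT F2/M at 20 reads and by the F test. At 5 reads SSCT F1 had 1. With strands merged SSCT F0 had 2 and SSCT F2/M 1, and with windows shifted by 500 bp SSCT F2/M had 1. Replicate numbers did not pair the mice (same-number correlations from -0.0144 to 0.0154, with 1, 0, 3 and 1 mice closest to their own number in the SSCT F1, F2/M, F2/P and F0 comparisons); with the replicate block SSCT F2/M had 1 DMR. Leaving out 1 mouse at a time, DMCs ranged from 1 to 20, 0 to 6, 1 to 4 and 2 to 8, and DMRs from 0 to 2, 0 to 1, 1 to 3 and 0 to 2; the 20 came without SSCT F0 replicate 3. Without SSCT F0 replicates 2 and 3, chosen after seeing the data as was the use of each library's own positions, there were 32 DMCs and 4 DMRs. Under the plot's names SSCT F1 had 2 DMCs and 1 DMR with either naming, SSCT F2/P 0 DMCs, and with the exchange SSCT F2/M 0 and 0 and SSCT F2/P 2 DMRs. Signs then turned: in SSCT F2/M to -29.4 and -35.7 points at the Tet2 positions, -25.6 in the Tet2 window and -30.7 at the Tet3 position and window, and with the exchange to -20.7, -20.5 and -14.5 at the Tet2 places. In SSCT F2/P Tet2 chr3:133534166 turned to -20.5, and with the exchange to -35.7. The cause of these changes was not tested. Coverage limits what could be seen: SSCT F0 shared 58 member positions with control F0, and Dnmt3l, Tdg and Zfp57 had 0, 1 and 2 positions in all offspring.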
